A study of Mus musculus with 2 samples.

Results

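The replication-dependent histone genes supply most of the protein around which new DNA is wrapped. They were taken here as the protein-coding genes of GENCODE M21 whose symbols begin with Hist1h, Hist2h, Hist3h or Hist4h, which gave 67 of 21938 protein-coding genes. By class they were 6 linker histone H1 genes, 18 H2A, 18 H2B, 12 H3 and 13 H4 genes. Of these, 54 lay on chromosome 13, 10 on chromosome 3, 2 on chromosome 11 and 1 on chromosome 6. The data were DNase-seq libraries of the left cerebral cortex from 2 female mice aged 10 days, of the strain B6CASTF1/J, a first-generation cross of C57BL/6J with CAST/EiJ. Both libraries belong to 1 group with no treatment and are numbered as biological replicates 1 and 2, so no condition was compared and every spread below is between these 2 libraries. DNase I cuts accessible DNA, peaks are stretches with many cuts, and footprints are short protected stretches called by the authors.

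H2A, H2B, H3 and H4 form the core of the nucleosome, and H1 binds the DNA that enters and leaves it. Genes of this family are transcribed mostly while DNA is replicated, sit in clusters, lack introns, and end their mRNA at a conserved stem-loop in place of a poly(A) tail. Transcription is gathered in nuclear histone locus bodies around the coactivator NPAT, while replacement histones such as H3.3 and H2A.Z are encoded elsewhere and made throughout the cell cycle. Most neurons of the cortex have left the cell cycle by this age, and glial precursors still divide. In bulk tissue, fewer cells of a type with an open promoter and a less open promoter in each cell cannot be told apart.

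The promoters that carry the main results are printed here, read 5′ to 3′ along the gene's own strand, from 250 bases before the RefSeq start to the base before it (GRCm38.p6, the assembly of mm10). RefSeq promoter windows were matched for 62 of the 67 genes, and Hist2h2be, Hist2h4, Hist1h3f, Hist1h2bc and Hist1h3a had no match. Capitals mark every match, on either strand, to CCAAT, to the TATA box letters TATAAA, to the octamer ATTTGCAT, the E2F-type TTTNGCGC, the GC box GGGCGG, the H1 box AAACACA and GGTCCG, a part of the H4 element to which HINFP binds. Hist1h4d (chr13:23581318-23581567, plus strand) had the highest mean signal of all 67 genes, and Hist1h4j (chr13:21734784-21735033, plus) the weakest of the open H4 genes. Hist1h4m (chr13:21811496-21811745, plus) is shown because it has a near-identical copy, Hist1h3e (chr13:23562386-23562635, minus) as the strongest H3 gene, Hist1h1c (chr13:23738557-23738806, plus) as the strongest H1 gene, and Hist1h1t (chr13:23695561-23695810, plus) as the testis H1 gene, which had no peak.
Hist1h4d: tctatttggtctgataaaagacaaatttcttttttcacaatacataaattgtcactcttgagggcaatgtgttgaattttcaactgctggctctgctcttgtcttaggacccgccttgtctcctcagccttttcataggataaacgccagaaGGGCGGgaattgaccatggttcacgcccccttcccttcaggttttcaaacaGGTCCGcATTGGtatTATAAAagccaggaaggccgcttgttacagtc
Hist1h4j: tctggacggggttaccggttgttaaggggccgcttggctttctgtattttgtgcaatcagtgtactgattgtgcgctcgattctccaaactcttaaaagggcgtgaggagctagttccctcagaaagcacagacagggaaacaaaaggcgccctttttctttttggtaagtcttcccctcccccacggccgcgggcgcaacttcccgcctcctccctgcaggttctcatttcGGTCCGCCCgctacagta
Hist1h4m: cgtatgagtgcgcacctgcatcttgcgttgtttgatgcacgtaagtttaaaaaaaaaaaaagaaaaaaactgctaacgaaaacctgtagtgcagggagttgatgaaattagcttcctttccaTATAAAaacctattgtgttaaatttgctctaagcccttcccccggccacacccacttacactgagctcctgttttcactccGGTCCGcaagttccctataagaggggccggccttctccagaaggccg
Hist1h3e: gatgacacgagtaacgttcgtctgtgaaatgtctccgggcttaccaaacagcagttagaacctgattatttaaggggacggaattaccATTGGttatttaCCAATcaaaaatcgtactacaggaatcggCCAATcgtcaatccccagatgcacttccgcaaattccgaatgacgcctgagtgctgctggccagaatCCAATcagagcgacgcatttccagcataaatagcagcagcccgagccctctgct
Hist1h1c: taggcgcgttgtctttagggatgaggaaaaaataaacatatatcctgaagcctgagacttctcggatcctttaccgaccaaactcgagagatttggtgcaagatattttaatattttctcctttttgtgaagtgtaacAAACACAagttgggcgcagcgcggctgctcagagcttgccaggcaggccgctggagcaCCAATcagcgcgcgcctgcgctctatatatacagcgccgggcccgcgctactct
Hist1h1t: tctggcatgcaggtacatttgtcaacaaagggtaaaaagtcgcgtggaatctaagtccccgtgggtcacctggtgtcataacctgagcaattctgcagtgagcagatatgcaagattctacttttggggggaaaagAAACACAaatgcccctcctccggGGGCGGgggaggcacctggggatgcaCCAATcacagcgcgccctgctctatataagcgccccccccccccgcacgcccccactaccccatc
The GGTCCG of Hist1h4d lies at -47 and is followed by a reversed CCAAT and a TATAAA. The same letters stand at -47 in Hist1h4m and at -18 in Hist1h4j, counted from the RefSeq start as 0 to the leftmost base of the match. AAACACA lies at -112 in Hist1h1c and at -114 in Hist1h1t, and each also has a CCAAT nearer to its start.

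Many H2A and H2B genes face away from each other and share the stretch between their starts. The stretches between the RefSeq starts of 3 such pairs are printed on the plus strand, with the same letters in capitals. They are the strongest pair, Hist1h2an/Hist1h2bp (chr13:21787249-21787487), the weakest pair with a peak, Hist1h2ae/Hist1h2bg (chr13:23571221-23571399), and the testis pair, Hist1h2ba/Hist1h2aa (chr13:23934157-23934436), which had none.
Hist1h2an/Hist1h2bp: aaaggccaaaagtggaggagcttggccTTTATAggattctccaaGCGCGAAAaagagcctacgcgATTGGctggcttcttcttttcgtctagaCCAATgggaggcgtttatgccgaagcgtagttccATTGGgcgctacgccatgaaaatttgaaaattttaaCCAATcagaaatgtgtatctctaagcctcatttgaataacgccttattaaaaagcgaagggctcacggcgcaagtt
Hist1h2ae/Hist1h2bg: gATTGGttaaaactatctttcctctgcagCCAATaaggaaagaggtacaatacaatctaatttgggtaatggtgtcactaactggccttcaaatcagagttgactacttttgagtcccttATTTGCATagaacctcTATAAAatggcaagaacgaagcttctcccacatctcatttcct
Hist1h2ba/Hist1h2aa: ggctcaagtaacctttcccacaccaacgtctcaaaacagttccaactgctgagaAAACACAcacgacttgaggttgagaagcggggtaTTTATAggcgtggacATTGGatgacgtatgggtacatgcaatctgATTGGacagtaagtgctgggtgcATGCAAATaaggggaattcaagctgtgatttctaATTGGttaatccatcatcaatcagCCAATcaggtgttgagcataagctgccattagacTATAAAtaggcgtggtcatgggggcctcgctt
The strong pair holds the E2F-type letters and 4 CCAAT matches, the weak pair the octamer, and the testis pair 4 CCAAT matches, the octamer and 2 TATAAA matches. CCAAT, the octamer and the TATA box letters were thus present in pairs with and without a peak.

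A promoter is called open here where both libraries had a peak of the smaller deposited list within 500 bp of any annotated start. Of the 67 histone genes 53 were open (79.1%), beside 55.2% of all protein-coding genes. A peak in 1 library only was found at 2 genes, and 12 had none in either. With the larger deposited lists 57 were open, beside 61% of all protein-coding genes. A footprint within the same window in both libraries was found for 55 genes, beside 58.2% of all protein-coding genes, and 10 genes had none in either. All 53 open genes had a footprint in both libraries, with 1 to 12 per library and a median of 4 in each. The median over all open protein-coding genes was 5 in each. How many of those had a footprint in both libraries was not counted. The shares over all protein-coding genes are not matched for CpG content. By RefSeq promoter window, 49 of 62 histone genes had a peak in both libraries. Of coding windows in their middle CpG range, described below, 75.5% had one.

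The signal of a promoter is that of its strongest peak on the authors' scale, in each library. Over the 53 open histone genes the median signal was 2.97 in replicate 1 and 3.40 in replicate 2, and the median of the means of both was 3.17 (SD of the library medians 0.31). The median over all 12105 open protein-coding genes was 2.89 and their 90th percentile 6.52, so histone promoters as a group sat near the middle of open promoters. Most histone genes had 1 annotated start, while other genes can have more, such as Cenpa with 10 and Pou2f1 with 14. More starts give more windows, which can only raise the highest signal, the share open and the number of footprints. The classes differed in their medians, with 5.32 for H4, 3.52 for H2A, 2.72 for H3, 2.64 for H2B and 2.12 for H1. Of the 11 open H4 genes 10 were above the coding median, while none of the 3 open H1 genes was. The classes were not tested against each other, and their ranges overlapped.

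**Figure D1:**
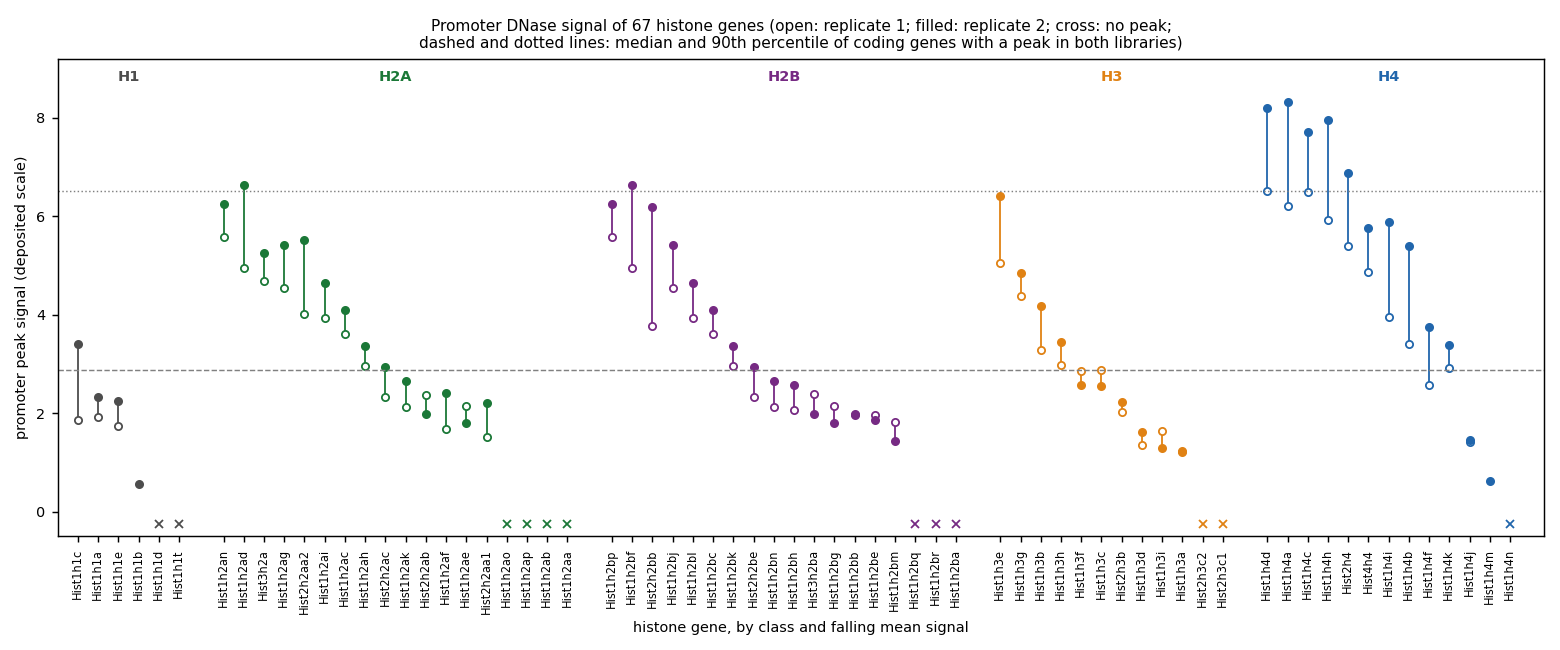
Promoter peak signal (deposited scale) of each of the 67 histone genes, by class, with replicate 1 as open and replicate 2 as filled points and a cross where no peak was called. H4 genes reach 8.33 while the 3 open H1 genes stay at or below 3.40, and dashed and dotted lines mark the coding median of 2.89 and 90th percentile of 6.52.

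H4, the most conserved core histone, had the strongest promoters. At Hist1h4d the signal was 6.51 in replicate 1 and 8.19 in replicate 2. Hist1h4a had 6.22 and 8.33, Hist1h4c 6.50 and 7.72, and Hist1h4h 5.94 and 7.97. These 4 genes, all on chromosome 13, were the only histone genes with a mean above the 90th percentile of open coding promoters. Hist2h4 on chromosome 3 (5.40 and 6.88) and Hist4h4 on chromosome 6 (4.88 and 5.76) followed, so strong H4 promoters were found on each of the 3 chromosomes that hold H4 genes. At the low end, Hist1h4j had 1.43 in replicate 1 and 1.46 in replicate 2. Hist1h4j lies below the strongest 4 in both libraries, which follows from ranking the genes by these values. Its near copy Hist1h4k, whose window was 95.8% identical over 286 aligned bases, had 2.92 and 3.38. Hist1h4m had a peak of 0.62 in replicate 2 only, and Hist1h4n had none in the smaller lists. With the larger lists both were open, at 0.51 and 0.62 for Hist1h4m and at 0.37 and 0.43 for Hist1h4n.

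The H3 genes had a median of 2.86 in replicate 1 and 2.57 in replicate 2 over 10 open genes. Hist1h3e was highest, at 5.05 in replicate 1 and 6.41 in replicate 2. Hist1h3g had 4.38 and 4.85, Hist1h3b 3.29 and 4.18, and Hist1h3h 2.98 and 3.44. In these 4 genes replicate 2 was higher, whereas 4 of the other 6 open H3 genes were higher in replicate 1. Hist1h3f was unlike the rest, since its highest peak differed between the libraries. In replicate 1 it had its midpoint 358.5 bp downstream of the start, with a signal of 2.86 there and 2.27 in replicate 2. In replicate 2 a peak upstream, which also serves Hist1h2bh, was higher, at 2.58. Hist2h3c1 and Hist2h3c2, on chromosome 3, had no peak in any list.

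H2A and H2B form the dimers on either side of the nucleosome. Among H2A genes Hist1h2an had 5.58 in replicate 1 and 6.26 in replicate 2, and Hist1h2ad 4.95 and 6.63. Hist3h2a on chromosome 11 had 4.70 and 5.26, and Hist1h2ag 4.55 and 5.41. Hist1h2an, Hist1h2ad and Hist1h2ag share their peak with the H2B gene on the other side, namely Hist1h2bp, Hist1h2bf and Hist1h2bj, which are therefore also the H2B genes of highest signal together with Hist2h2bb at 3.78 and 6.19. Hist2h2bb had the widest gap between the libraries of the H2A and H2B genes, with an SD of 1.71. Hist3h2ba, the H2B gene on chromosome 11, had 2.40 in replicate 1 and 1.99 in replicate 2.

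Head-to-head pairs were common. Starts of 24 genes formed 12 divergent H2A and H2B pairs 176 to 306 bp apart (median 259.5 bp), and 9 pairs had a peak between the starts in both libraries. The 4 strongest were Hist1h2an/Hist1h2bp at 5.58 in replicate 1 and 6.26 in replicate 2, Hist1h2bf/Hist1h2ad at 4.95 and 6.63, Hist1h2ag/Hist1h2bj at 4.55 and 5.41, and Hist1h2bl/Hist1h2ai at 3.94 and 4.65. The 4 weakest were Hist1h2ae/Hist1h2bg at 2.15 and 1.80, Hist1h2ak/Hist1h2bn at 2.12 and 2.66, Hist2h2ac/Hist2h2be at 2.34 and 2.93, and Hist1h2ah/Hist1h2bk at 2.97 and 3.37. Between them stood Hist1h2ac/Hist1h2bc at 3.62 and 4.10. In both libraries the 4 strongest pairs were above the 4 weakest without overlap, which follows from ranking them by these values. The 18 open genes in pairs had a median signal of 3.86 and the 11 open H2A and H2B genes outside pairs 2.18. That difference was not tested, and a pair lends the same peak to both of its genes. The pairs without a peak were Hist1h2bq/Hist1h2ao, Hist1h2ap/Hist1h2br and the testis pair Hist1h2ba/Hist1h2aa.

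Linker histone promoters were the least open class, with 3 of 6 genes. Hist1h1c had 1.86 in replicate 1 and 3.40 in replicate 2, the largest log2 ratio between the libraries of all open histone genes (0.87). Hist1h1a had 1.92 and 2.33, and Hist1h1e 1.75 and 2.26. Hist1h1b had a peak of 0.57 in replicate 2 only, and with the larger lists 0.42 in replicate 1 and 0.57 in replicate 2. Hist1h1d had no peak within 500 bp of its GENCODE start, but its RefSeq start lies 1770 bp further on, and a peak at that start had 1.43 in replicate 1 and 1.99 in replicate 2. Taken by RefSeq starts where a match existed, a setting added once the data had been examined, 54 of 67 genes were open, with Hist1h1d below the other 3 open H1 genes in both libraries.

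The genes without an open promoter fell into distinct kinds. Hist1h1t, Hist1h2ba and Hist1h2aa encode the testis histones H1t, TH2B and TH2A, which replace their somatic forms in male germ cells. None had a peak in the smaller or larger lists, a footprint, or a position with a false discovery rate under 0.05 within 500 bp of its start in either library. The nearest peak of the smaller lists was 2587 bp from Hist1h1t in both libraries, at the strong H4 promoter of Hist1h4c, 4665 and 4672 bp from Hist1h2ba, and 4359 and 4366 bp from Hist1h2aa. In a check of how much sequence is unique, 100% of the 32-base words in the window of 500 bp either side of the Hist1h1t start were found once in the genome, 82.4% for Hist1h2ba and 95.1% for Hist1h2aa.

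A further 8 genes without an open promoter lay in sequence that occurs more than once. In Hist1h2bq, Hist1h2ao, Hist1h2ap and Hist1h2br 0% of the 32-base words of the window were found once in the genome, in Hist1h4n 2.89%, in Hist2h3c1 and Hist2h3c2 3.30% each and in Hist1h4m 3.81%. The promoter windows of Hist1h2bq and Hist1h2br were identical over 300 bases, those of Hist1h2ao and Hist1h2ap over 200 aligned bases, and those of Hist1h4m and Hist1h4n differed at 1 of 299 bases. Hist2h3c1 and Hist2h3c2 differed at 1 of 285. Reads that lie wholly within such copies cannot be placed on 1 of them, and whether the authors kept reads that map to several places is unknown here. The state of these 8 promoters is therefore not known from these files. Hist2h2aa1 (1.52 and 2.21) and Hist2h2aa2 (4.01 and 5.52) were open with 33.3% and 27.3% of words found once, and their values are uncertain for the same reason. Without the 8 genes under 5%, a cut added after the data were examined, 53 of 59 were open (89.8%). None of the 8 was open, so leaving them out can only raise the share, and no such cut was made over the protein-coding genes, of which 55.2% were open. The last of the closed genes was Hist1h2ab, with 71.4% of words found once, which had a footprint count of 2 in each library and a peak of 0.62 in replicate 1 and 0.56 in replicate 2 in the larger lists only.

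**Figure D2:**
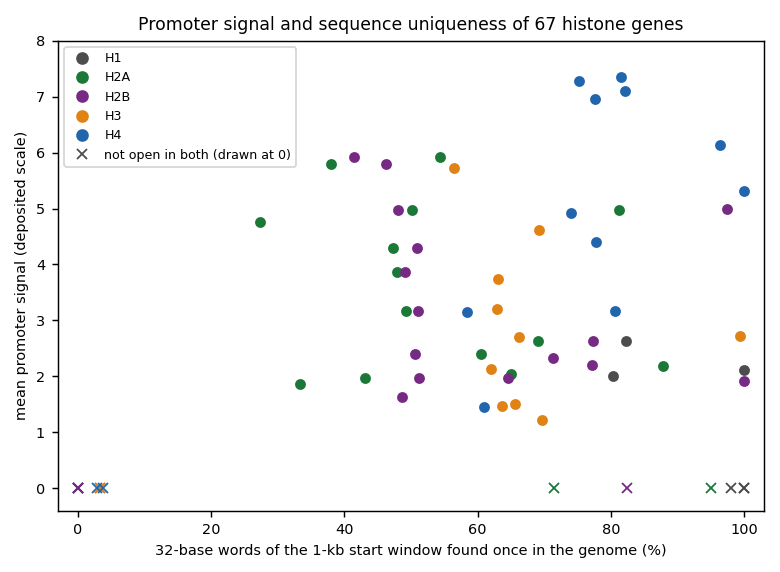
Mean promoter signal (deposited scale) of the 67 histone genes against the percentage of 32-base words in the window of 500 bp either side of the start that occur once in the genome. The 8 genes under 5% are all drawn at 0 as not open in both libraries, and every open gene is at 27.3% or above.

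Peaks sat just upstream of the GENCODE starts. Over the 53 open genes the strongest peak had a median width of 220 bp in each library, and its midpoint lay at a median of 80.5 bp upstream in replicate 1 and 89.5 bp in replicate 2. By class the median midpoint in replicate 1 was -126.5 bp for H2B, -123 bp for H2A, -67.5 bp for H4, -46 bp for H3 and -15.5 bp for H1, relative to the start. It was upstream in both libraries in 47 genes and covered the start in both in 35. Of 227 footprints in the windows in replicate 1, 61.7% had their midpoint within 200 bp upstream of the start, and of 228 in replicate 2, 67.1%. The shares over all protein-coding genes were 45.7% and 47.1%. Footprints in a divergent pair are counted for both of its genes. The GENCODE start lay within 10 bp of the RefSeq start in 29 of the 62 matched genes. It lay 85 bp downstream of it in Hist1h2ak and 78 bp upstream of it in Hist1h3b. Where it lies downstream, peaks and footprints appear further upstream. The class medians and footprint shares were not recounted from RefSeq starts.

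**Figure D3:**
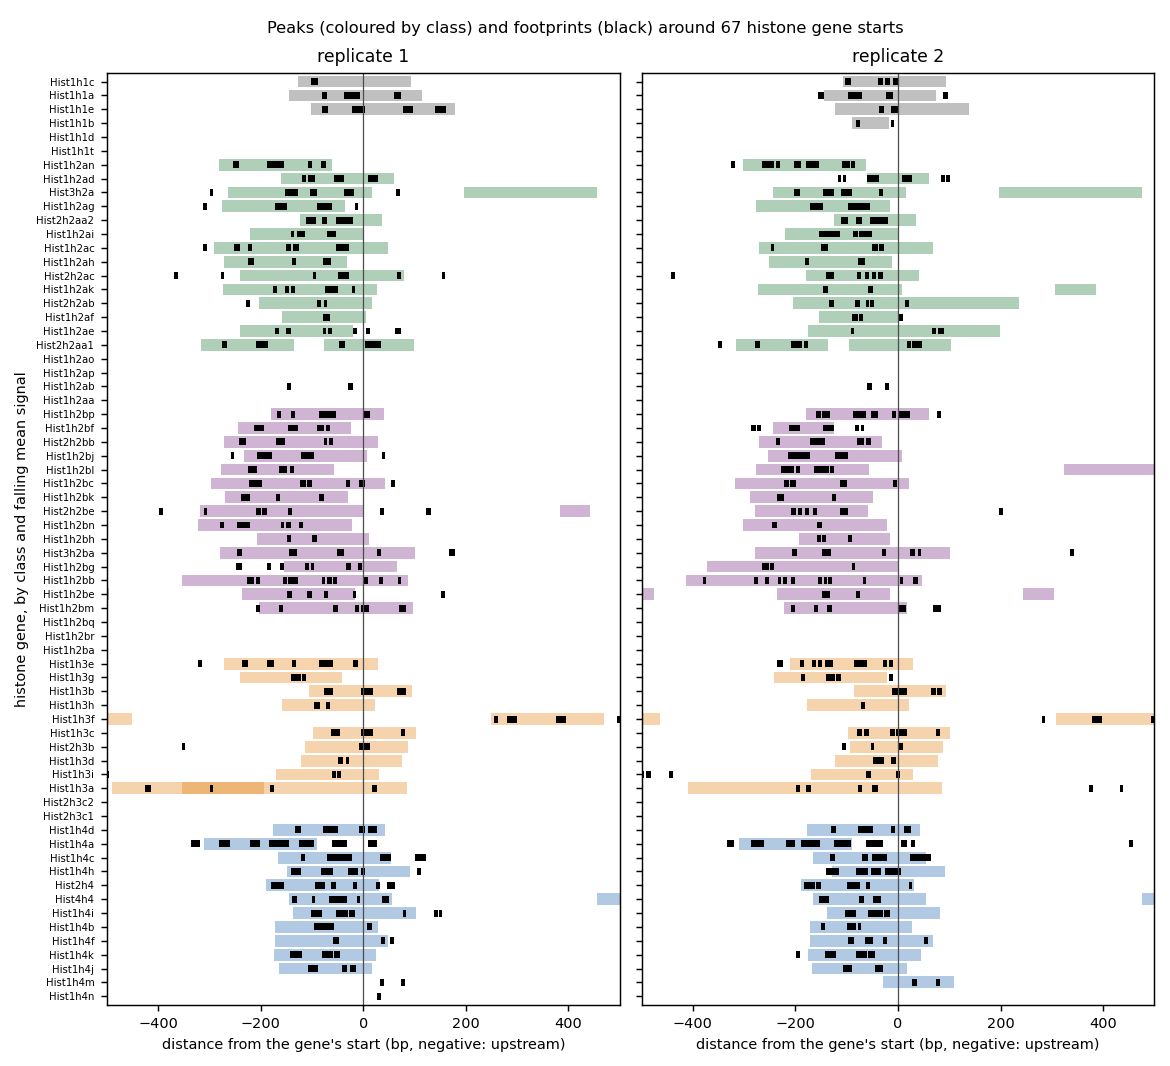
Peaks of the smaller lists (coloured bars) and footprints (black) within 500 bp of the start of each of the 67 histone genes, in replicate 1 and replicate 2, with distance in bp and upstream to the left. Most peaks end near the start, H2A and H2B peaks lie further upstream of the GENCODE start than H4 peaks, and rows without bars are the genes with no peak.

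The promoters shared letters by class. CCAAT was found in 53 of 62 windows of 300 bases (85.5%), beside 38.2% of 21238 protein-coding windows. It was in all 6 H1, 18 H2A, 16 H2B and 10 H3 windows and in 3 of 12 H4 windows. GGTCCG, the H4 element part, was in 11 of 12 H4 windows and in 2 of the other 50, beside 10.5% of coding windows, and in 6 H4 genes it began at -47 or -46. AAACACA was in 5 of 6 H1 windows, between -122 and -112, and in 2 H2A and 2 H2B windows, beside 6.15% of coding windows. TATAAA was in 35 of 62 windows (56.5%), beside 12.6%, and GGGCGG in 24 (38.7%), beside 46.2%. The 41 TATAAA matches lay at 35 distinct places, from -250 to 41. Their median position was -94 in H2B, -89.5 in H3, -79.5 in H4, -32 in H2A and -30.5 in H1. The octamer, bound by OCT-1, and the E2F-type letters were each in 7 H2A and 7 H2B windows and in no H1, H3 or H4 window, beside 1.66% and 1.75% of coding windows. Windows of a pair overlap, so these were 11 distinct octamer and 8 distinct E2F-type places.

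Signals set against these letters were taken at the RefSeq starts of matched genes. For Hist1h2be that start lies 35154 bp from the GENCODE start, with 1.83 and 1.61 in place of 1.96 and 1.86. Open H2A and H2B genes with the E2F-type letters had a median signal of 4.98 (10 genes, 6 distinct peaks, 1.63 to 5.92), and those without 2.39 (17 genes, 14 peaks, 1.72 to 4.99). Those with the octamer had a median of 2.64 (11 genes, 9 peaks, 1.63 to 4.99), and those without 4.30 (16 genes, 11 peaks, 1.86 to 5.92). These ranges overlapped and no test was made. The CpG observed over expected ratio of the windows had a median of 0.740 (0.253 to 1.31), beside 0.567 over coding windows. Of the 6461 coding windows within the middle range of the histone windows, 0.590 to 0.892, 75.5% had a peak in both libraries, beside 46.7% of all coding windows. Of the histone windows, 49 of 62 had one.

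Footprints overlapped some of these letters in both libraries. A place is called covered here where a footprint overlapped it by at least 1 bp, so part of it can lie outside. Such shares of places are not the same measure as a share of bases. In the 49 histone windows with a peak in both, 10.3% of bases were under a footprint in both libraries, beside 10.8% over 9917 coding windows. GGTCCG had 11 places there, of which 7 were covered in replicate 1, 9 in replicate 2 and 6 in both (54.5%), beside 16.1% of 1596 places in open coding windows. In Hist1h4d, printed above, the GC box, GGTCCG, the reversed CCAAT and TATAAA were all under footprints in both libraries. The E2F-type letters were covered in both libraries at 5 of 6 places (83.3%), beside 38.6% of 259. TATAAA was covered in both at 8 of 29 places (27.6%), beside 12.5% of 585. CCAAT was covered in both at 16 of 91 places (17.6%), beside 17.7% of 5961, and in Hist1h3e 2 of 4 were. The octamer was covered in both at 1 of 9 places and AAACACA at 0 of 4. DNase I prefers some sequences over others, which was not corrected here, and no share was tested.

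The libraries ranked the histone promoters alike. Over the 44 distinct peak pairs at the 53 open genes, the signals correlated with a Pearson r of 0.94 on the log2 scale and a Spearman rho of 0.93, and 8 of the 10 highest genes were shared. These points share the same libraries, and 9 peaks each served 2 genes. The median log2 ratio of replicate 2 over replicate 1 was 0.25 (SD over genes 0.27), with 43 genes higher in replicate 2 and 10 in replicate 1. Over all open protein-coding genes it was 0.56 (SD 0.28), with 97.3% higher in replicate 2. Over the 5023 coding genes in the middle range of histone signals, 2.13 to 4.98, it was 0.58. By class the median was 0.37 in H1, 0.35 in H4, 0.25 in H2A, 0.18 in H2B and 0.14 in H3. The size of each of these ratios depends on how the authors scaled each library, and that scale is unknown here. A single factor per library would shift the histone and coding ratios by the same amount. With 2 animals the smaller ratio of the histone genes was not tested.

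**Figure D4:**
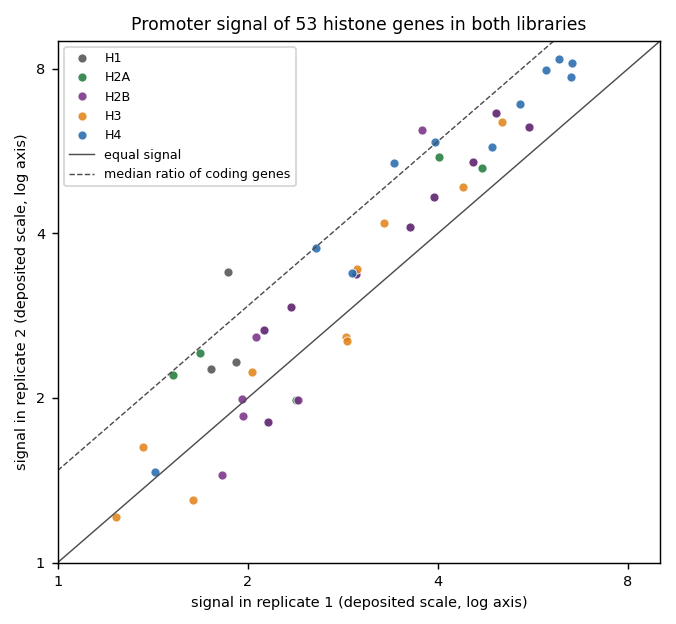
Promoter signal in replicate 2 against replicate 1 for the 53 open histone genes, on log axes and coloured by class, with genes that share a peak on the same point. Most points lie between equal signal (solid line) and the median ratio of protein-coding genes (dashed line), and 10 genes lie below equality, of which Hist1h2ae and Hist1h2bg share a point.

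On chromosome 13 the genes formed 4 blocks with at most 100 kb between neighbours, of 364.7 kb in all. Peaks of replicate 1 that overlapped any peak of replicate 2 were counted as shared. The blocks held 46 shared peaks, or 126 per Mb, beside 18.6 per Mb over chromosome 13, a 6.78-fold difference. Within 500 bp of a histone gene start lay 36 of them, and 10 lay elsewhere. The blocks were drawn from the first to the last histone gene, so they are dense in gene starts by definition. A density of peaks above that of a whole chromosome follows largely from this and was not tested. The largest block, of 233.4 kb and 29 genes, held 33 shared peaks and 26 open genes. The block of 121.8 kb with 18 genes held 10 shared peaks and 11 open genes, and it contains 6 of the 8 genes in repeated sequence. The block of 8.51 kb held 5 genes, all open, and 3 shared peaks. The testis pair formed the last block, of 1.08 kb, with no peak. The chromosome 3 block of 50.3 kb held 10 genes, 8 of them open, and 9 shared peaks, 8 of these at histone gene starts. That was 179 per Mb, beside 16.3 per Mb over chromosome 3, with the same limit.

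**Figure D5:**
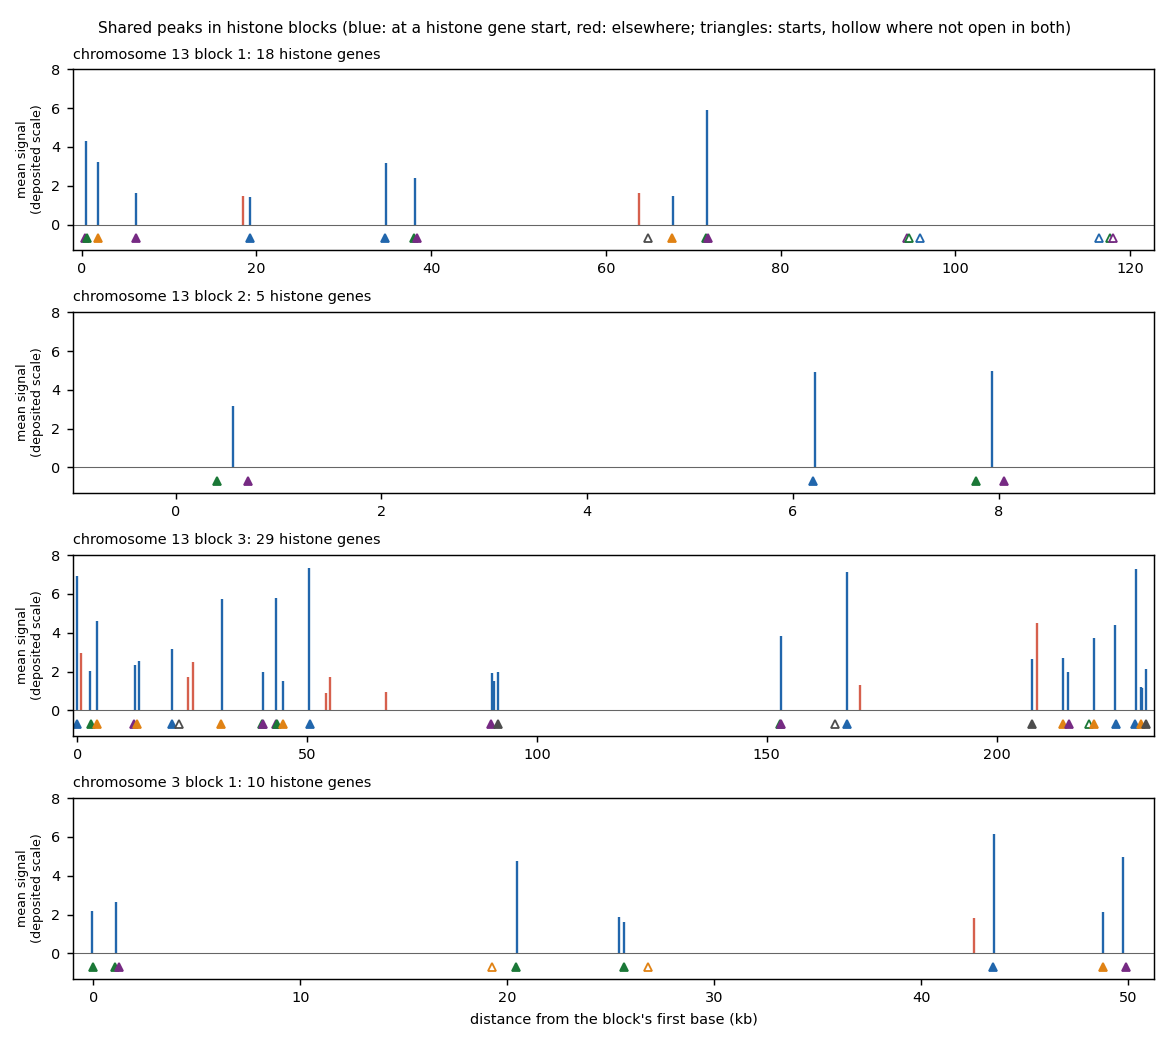
Shared peaks (vertical lines, mean signal on the deposited scale) along 3 chromosome 13 blocks and the chromosome 3 block, by distance in kb from the first base of the block, with triangles at gene starts coloured by class and hollow where the gene was not open. Peaks away from starts, in red, are few and the highest of them has a mean of 4.52, and the block of the testis pair, which held no peak, is not drawn.

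Peaks away from the starts often lay past the stem-loop of a histone gene. The stem-loop, searched as 6 base pairs beginning with GG around a 4-base loop beginning with TT, was found within 300 bases after the stop codon in 60 of 67 genes, 25 to 62 bases after it. The form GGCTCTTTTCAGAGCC was found in 38 genes, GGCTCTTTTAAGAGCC in 9 and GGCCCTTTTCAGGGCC in 8. All 6 H1 genes had one, Hist1h1t included. The genes without a match were Hist2h2be, Hist1h2an, Hist1h2bp, Hist1h2bq, Hist1h2br, Hist1h3g and Hist1h4a. The search followed only the outermost coding end over all transcripts of a gene. A stem-loop after another annotated stop codon, or with other letters, would be missed, so these genes are not shown to lack one. Of the 12 shared peaks in the histone blocks of chromosomes 3, 11 and 13 that were not at a GENCODE start, 7 had their midpoint 291 to 536 bp past a stem-loop, 2 were at the RefSeq starts of Hist1h1d and Hist1h2be, and 3 were elsewhere.

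Past a gene here means past its stem-loop. By the GENCODE models, the peaks past Hist1h1c, Hist1h1d, Hist2h4, Hist1h2be and Hist4h4 lay inside the annotated gene. The strongest of all peaks past a stem-loop, at Hist1h1c (chr13:23739701-23739920), reached 3.92 in replicate 1 and 5.12 in replicate 2. It was above the 1.86 and 3.40 of the gene's own promoter in both libraries. The peak past Hist1h4h (chr13:23531661-23531860) had 2.23 and 3.67. The peak past Hist1h1d (chr13:23556101-23556320) had 2.53 and 2.49. Past Hist1h1b, whose start had a peak in replicate 2 only, a peak (chr13:21779381-21779620) had 1.40 and 1.83. Past Hist2h4 (chr3:96262301-96262520) the signals were 1.50 and 2.15, past Hist3h2ba on chromosome 11 1.09 and 1.99, and past Hist1h2be 0.75 and 1.03. Counted from the genes, the stretch 200 to 600 bp past the stem-loop lay clear of other histone gene starts in 47 genes, and 8 of these had a peak there in both libraries, with Hist4h4 at 1.49 and 2.30 as the other one. This stretch was chosen after the peaks had been seen, and no test was made of it. No such stretch was counted at other protein-coding genes, so no share over them stands beside this count.

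Replacement histone genes lie outside the family as it was taken here. Of 12 such genes found in the annotation 11 were open, beside 55.2% of all protein-coding genes, with a median signal of 4.67 beside 2.89. H2afx, which marks DNA breaks, had 6.88 in replicate 1 and 10.2 in replicate 2, and H2afv 6.68 and 10.2. H3f3b, an H3.3 gene, had 5.38 and 7.80, H3f3a 3.18 and 4.70, and H2afz, the H2A.Z gene, 5.52 and 7.62. H2afj had 4.64 and 6.21, and Cenpa, the centromeric H3, 4.01 and 5.33. Lower were H1f0, the H1 of resting cells, at 2.17 and 3.77, the macroH2A genes H2afy at 1.68 and 2.40 and H2afy2 at 1.43 and 1.43, and H1fx at 0.91 and 1.80. H1foo, the oocyte H1, had no peak in any list. The ranges of replacement and replication-dependent genes overlapped.

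All 17 listed genes for histone gene transcription and 3′ end processing were open, beside 55.2% of all protein-coding genes, with a median signal of 4.33 beside 2.89. Npat, the coactivator, had 5.73 in replicate 1 and 10.1 in replicate 2. Casp8ap2, another component of histone locus bodies, had 6.63 and 11.0, and Hinfp, the H4 promoter factor, 6.25 and 8.38. Pou2f1, which encodes OCT-1, had 3.69 and 6.66, and E2f1 3.08 and 4.44. Among the cell-cycle genes Ccne1 had 4.48 and 7.19, Ccne2 1.18 and 2.00, and Cdk2 1.56 and 2.27. For 3′ end processing, Slbp, the stem-loop binding protein, had 3.18 and 5.39, Lsm10 4.20 and 6.66, Lsm11 2.72 and 4.77, Zfp473 4.16 and 5.12, and Eri1 2.43 and 3.53. The cleavage factors Cpsf3 had 5.96 and 8.54, Sympk 3.21 and 5.45, Cstf2 2.67 and 5.10, and Cpsf2 1.17 and 1.78. Each of these 17 genes was higher in replicate 2, as were 97.3% of all open protein-coding genes.

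Among genes that mark cortical neurons, Snap25, Syt1, Camk2a, Neurod2 and Neurod6 were open, while Rbfox3 and Tbr1 had a peak in replicate 2 only and were open with the larger lists. All 9 listed genes of dividing cells were open (median 3.47), beside 55.2% of all protein-coding genes, from Mki67 at 1.72 and 2.58 to Ccna2 at 5.32 and 8.28. Of the 4 genes of other tissues, Alb, Myod1, Hba-a1 and Cdx2, none was open. With the larger lists Alb was open too, at 0.21 in replicate 1 and 0.25 in replicate 2. The libraries held 60071 and 70563 peaks in the smaller lists, 109563 and 121943 in the larger, and 212785 and 224029 footprints.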

How the data were processed

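DNase-seq libraries of 2 mice were analysed from the deposited files. Descriptions deposited beside the files state that peaks, footprints and cut rates were made per library from its filtered mm10 alignments, without pooling. Aligner, callers and thresholds are not given in the sources used here. Peak signal, as deposited by the authors, was scaled per library on a scale not given, in whole multiples of 0.00692 (replicate 1) and 0.00758 (replicate 2). If a step is 1 cut, the median peak of 120 and 122 steps has a counting error of 9.13% and 9.05%. The authors' footprint p-value column held 0.01 throughout and was not used. The false discovery rate (a p-value type column, deposited by the authors) covered positions under 0.05.

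Starts came from GENCODE M21, except for the RefSeq promoter windows and the signals set against their letters. Windows around starts were 500 bp either side. The signal of a gene was its highest peak in each library, over the windows of all its annotated starts. Peaks and footprints overlapped from 1 bp. Sequences came from RefSeq, GRCm38.p6. Motifs were searched on both strands. The stem-loop search after the stop codon was added after the data were examined. The planned search around annotated gene ends found 40. The CAST/EiJ copy differs from the reference and alleles were not separated. The histone genes, lists and rules were chosen with earlier results of these data known. Named were, per class, the 4 genes of highest signal, genes with a peak in 1 library or none, the 4 strongest and 4 weakest pairs, testis genes, genes outside the clusters on chromosomes 13 and 3, and both comparison lists. Other names were chosen after their values were seen. Some genes of the neuron list are not reported here. No test was made, since both libraries form 1 group, and nothing in the labels separates animal from technical spread. Alternatives were the larger lists, windows of 250 and 1000 bp, the gene's own start, the stronger 50% of peaks, a reciprocal overlap of 50%, signal in steps, footprints inside peaks and each library alone. Scripts were tested on simulated data and used Python 3.11.15, numpy 2.4.6, bedtools 2.31.1 and matplotlib 3.10.9.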

Additional observations from a re-analysis of the deposited data

How the results depend on the processing

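Across 36 recalculations, 32 planned and 4 added after the data were examined, 35 moved by less than 1 SD or stayed within 1.5 times the count reported, where the SD is that of the library medians for the signal and that over genes (0.27) for the log2 ratio. The exception was the window of 1000 bp, with which the median promoter signal of the open histone genes was 3.73 in place of 3.17, since a larger window can add a higher peak but cannot remove one. The number of open histone genes ranged from 52 to 57. With 1 library alone it was 53 to 55, the median signal 2.97 to 3.38, genes with a footprint 56, peaks in the chromosome 13 blocks 49 to 52 and in the chromosome 3 block 9 to 10. Genes with a footprint in both libraries ranged from 53 to 56 over all settings, and shared peaks in the chromosome 13 blocks from 43 to 56. Counted in steps in place of the deposited signal, the median log2 ratio of replicate 2 over replicate 1 was 0.12 in place of 0.25, so its size depends on the scale. No paired analysis was possible because the libraries form 1 group. The precision is limited by 2 libraries, by the unknown scale of the signal, and by the 8 genes in repeated sequence.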

Other observations

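The 1487 kb between histone blocks 2 and 3 of chromosome 13 held 40 protein-coding genes, of which 36 were vomeronasal receptor genes of the Vmn1r family, which are used by sensory neurons of the nose. None of the 36 was open in both libraries. The 3 open genes of that stretch were Zfp322a, Abt1 and Btn2a2. It held 40 shared peaks, or 26.9 per Mb, beside 126 per Mb in the histone blocks, which were drawn around histone gene starts. The 197.6 kb between blocks 1 and 2 held 16 shared peaks (81.0 per Mb) and 1 open gene, Zfp184, of 3. The 169.4 kb before the testis pair held 3 shared peaks (17.7 per Mb) and 5 genes, none of them open. These stretches carry no replication-dependent histone gene, and their names were chosen after their values were seen.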
